A study of Apis mellifera with 27 samples.

Results

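The subject here is the transfer RNA (tRNA) genes of the honey bee (Apis mellifera) and the histone marks around them in the brain. The members were all genes that a RefSeq gene table of the assembly Amel_HAv3.1 classes as tRNA on chromosomes 1 to 16, which gave 195 of the 12255 genes on these chromosomes. The table holds 218 tRNA genes in all, of which 22 are mitochondrial and 1 is not placed on a chromosome. The rule used the gene table alone, so no measured value decided which genes were members. The rule itself was chosen with earlier results of these data known. Chromatin immunoprecipitation and sequencing (ChIP-seq) had been carried out on pooled brains of newly emerged adults of 3 kinds, called castes here, male drones, and female queens and workers. Every caste had 2 libraries, from replicate pools, for each of 4 histone marks, H3K27ac, H3K4me3, H3K4me1 and H3K27me3, which gave 24 libraries. No group was treated or genetically altered. The optic lobes had been dissected away, so the tissue was the central brain, and a pool mixes the cell types of that tissue.

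tRNAs carry amino acids to the ribosome, and a cell needs many copies of each kind. Their genes are short and are read by RNA polymerase III rather than by RNA polymerase II, which reads protein-coding genes. The promoter lies within the gene itself, where the factor TFIIIC binds and recruits TFIIIB just upstream. Acetylation of histone H3 at lysine 27 (H3K27ac) and trimethylation at lysine 4 (H3K4me3) are commonly found at active promoters, and monomethylation at lysine 4 (H3K4me1) at enhancers. Trimethylation at lysine 27 (H3K27me3) is placed by Polycomb proteins at repressed sequence.

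The 195 genes had a length of 71 to 123 bp with a median of 73 bp, carried 45 anticodons (the 3 bases that read the codon) and served all 20 amino acids. They were named by amino acid letter and anticodon, so that TRNAK-UUU is a lysine tRNA gene with the anticodon UUU. Chromosome 4 held most of them (33), then chromosome 2 (23), and chromosome 5 the fewest (4). In all, 102 lay within the span of a protein-coding gene and 39 more within 1000 bp of one, and the other 54 were isolated. With gaps of at most 5000 bp counted as neighbours, 106 stood alone and 89 formed 31 groups. Neighbours can share a peak, so the genes are not independent of each other. Near-identical copies can also share reads, although the paired reads of the paper were longer than any of these genes. The paper mapped them with BWA at default parameters. Whether reads with several possible positions were then filtered is not given in the sources used here. The part of such reads in the results was not tested.

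The data were lists of peaks, called by the authors in every library separately. A gene counted as marked in a library where a peak shared at least 1 bp with the gene or the 500 bp on either side of it. Absence of a peak means that none was called there, and says nothing of weaker enrichment. The lists held 3866 to 26256 peaks. The ChIP tags behind them, recovered from the deposited folds and p-values, ranged from 4.20 to 25.1 M (1e6 tags), and in every mark both drone libraries had fewer tags than the 4 female libraries. Caste and the number of recovered tags can therefore not be told apart. The mapped reads that the paper lists were not lowest in a drone library for any mark. Recovered tags are thus not a measure of sequencing depth. As a check of the tissue, Syt1, brp and para, which work in neurons, had H3K27ac and H3K4me3 peaks in 6 of 6 libraries each. The royal jelly genes Mrjp1, Mrjp2 and Mrjp3 and the yolk protein gene Vg had H3K27ac peaks in 0 of 6.

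The first question was how often each mark lies at tRNA genes. A background was taken from the same library, as the share of all positions on the 16 chromosomes at which a window of the same length touches a peak. This equals the mean over randomly shifted positions. H3K27ac was the most frequent mark at tRNA genes. A peak was called at 55 and 57 genes in drone, 73 and 68 in queen, with 63 and 62 in worker, a share of 32.3% ± 3.45 (SD, n = 6 libraries) against 15.1% ± 1.07 of all positions. All 6 libraries lay above their background, and the lowest share at tRNA genes, 28.2%, exceeded the highest background, 16.5%. H3K27me3 was the rarest. It was called at 4 and 5 genes in drone, 4 and 4 in queen, with 5 and 3 in worker, a share of 2.14% ± 0.386 against 13.7% ± 0.388 of all positions. Every library lay far below its background.

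The 2 marks of lysine 4 lay between these. H3K4me1 was called at 35 and 42 tRNA genes in drone, 28 and 29 in queen, with 19 and 21 in worker, or 14.9% ± 4.41 against 10.9% ± 2.57 of all positions (SD, n = 6). Each library was above its own background, although in queen only by a little. H3K4me3 was called at 7 and 7 genes in drone, 17 and 21 in queen, with 15 and 17 in worker, or 7.18% ± 2.95 against 4.84% ± 1.51. Of these 6 libraries, 5 were above their background and drone replicate 1 was not, with 3.59% at tRNA genes against 3.75% of all positions.

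**Figure D1:**
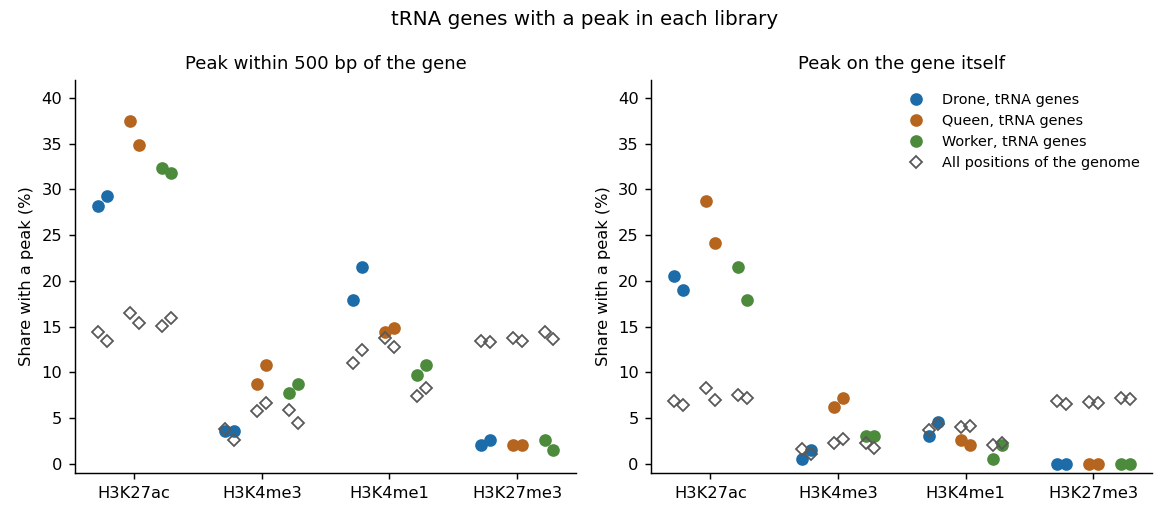
Share of the 195 tRNA genes with a peak (filled circles, 1 per library, in %) and share of all genome positions (open diamonds) for windows with 500 bp on each side (left) and for the gene alone (right). H3K27ac lies above its background in all 6 libraries in both panels, and H3K27me3 lies below it, at 0 on the gene itself.

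To compare marks that cover different parts of the genome, the log2 ratio of marked tRNA genes to the number expected from the background was formed, with 0.5 added to both. It was 1.08 ± 0.092 (SD, n = 6) for H3K27ac, 0.49 ± 0.34 for H3K4me3, 0.42 ± 0.27 for H3K4me1 and −2.55 ± 0.23 for H3K27me3. An exact two-sided sign-flip permutation test over the 6 libraries, adjusted over 4 marks, gave 0.0417 for H3K27ac, H3K4me1 and H3K27me3 and 0.0625 for H3K4me3. The smallest unadjusted p of this test is 0.0312, and it is reached where all 6 libraries share a sign. Windows moved by 10000 bp to both sides, which keep the neighbourhood of the genes, held a peak in 17.6% for H3K27ac, 6.50% for H3K4me3, 9.74% for H3K4me1 and 15.1% for H3K27me3. Against these windows the log2 ratio of H3K4me3 was 0.077, and with equal numbers of peaks in all lists it was 0.034.

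Set against each other, the marks fell into 3 levels. The log2 ratio of H3K27ac exceeded that of H3K4me3 by 0.59, that of H3K4me1 by 0.66 and that of H3K27me3 by 3.63. It was 3.04 higher for H3K4me3 and 2.97 higher for H3K4me1 than for H3K27me3. In these 5 pairs the 6 libraries of one mark did not overlap with those of the other (exact permutation test, two-sided, adjusted p = 0.0026, 6 against 6 libraries). H3K4me3 minus H3K4me1 was 0.07 with overlapping libraries (exact permutation test, adjusted p = 0.699). Among the 54 isolated genes alone, the order of H3K27ac and H3K4me3 turned round, with a difference of −0.12 (exact permutation test, adjusted p = 0.636), and H3K27ac minus H3K4me1 was 0.26 (adjusted p = 0.149). Per library, 2 to 7 of these 54 had H3K4me3. In 5 of 6 libraries they included 4 TRNAG-UCC genes within 760 bp on chromosome 2.

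The next question was whether the peaks lie on the genes or beside them. With the 500 bp left out, H3K27ac was called on 40 and 37 tRNA genes in drone, 56 and 47 in queen, with 42 and 35 in worker. This was a share of 22.0% ± 3.94 (SD, n = 6) against 7.21% of all positions, and a log2 ratio of 1.56 ± 0.18. H3K4me3 was called on 1 and 3 genes in drone, 12 and 14 in queen, with 6 and 6 in worker, or 3.59% ± 2.59 against 1.95%. H3K4me1 was called on 6 and 9 genes in drone, 5 and 4 in queen, with 1 and 4 in worker, or 2.48% ± 1.35 against 3.44%. Its log2 ratio on the gene was thus −0.58 ± 0.61, of the opposite sign to that within 500 bp. No library had an H3K27me3 peak on any of the 195 genes, against 6.84% of all positions. A count of 0 of 195 allows a share of up to 1.54%, for counting error only. For peaks on the gene the adjusted p-values of the exact sign-flip permutation test were 0.0625 for H3K27ac and H3K27me3, 0.0833 for H3K4me1 and 0.25 for H3K4me3.

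The share of tRNA genes covered by a peak was then followed in steps of 50 bp from the midpoint of the gene. H3K27ac formed a narrow maximum there. It covered 21.7% ± 3.53 of the genes at the midpoint (SD, n = 6), 15.3% and 15.7% at 100 bp to the left and right, and 9.32% and 8.72% at 200 bp. Farther out it was higher again, with 14.6% at 500 bp to the left and 13.7% at 1000 bp to the right. Left and right are by coordinate, since the gene table gives no strand. The 6 libraries ranged from 17.9% to 27.7% at the midpoint, and queen replicate 1 was the highest. Genome-wide, H3K27ac peaks covered 6.42% of the chromosomes.

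The other marks had other shapes. H3K4me1 dipped at the gene, with 2.22% ± 1.32 covered at the midpoint against 5.90% and 5.64% at 500 bp to the left and right, and 2.82% in the genome. H3K27me3 was 0 from 300 bp on the left to 150 bp on the right of the midpoint at each position measured in all 6 libraries, and 4.96% and 3.50% at 2000 bp on the left and right, against 6.05% in the genome. H3K4me3 covered 2.99% ± 2.09 at the midpoint and 1.71% in the genome. The coverage at the midpoint minus the mean at 1000 bp on both sides was 8.97 percentage points ± 2.00 for H3K27ac, −2.86 ± 1.04 for H3K4me1 and −1.62 ± 0.311 for H3K27me3, with the same sign in 6 of 6 libraries each (exact sign-flip permutation test, two-sided, adjusted p = 0.0417 each). For H3K4me3 it was 1.28 ± 1.79 (exact test, adjusted p = 0.188). Measured against 2000 bp in place of 1000 bp, the adjusted p was 0.0625 for H3K27ac, 0.0833 for H3K4me1 and 0.0625 for H3K27me3 in the same exact test.

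**Figure D2:**
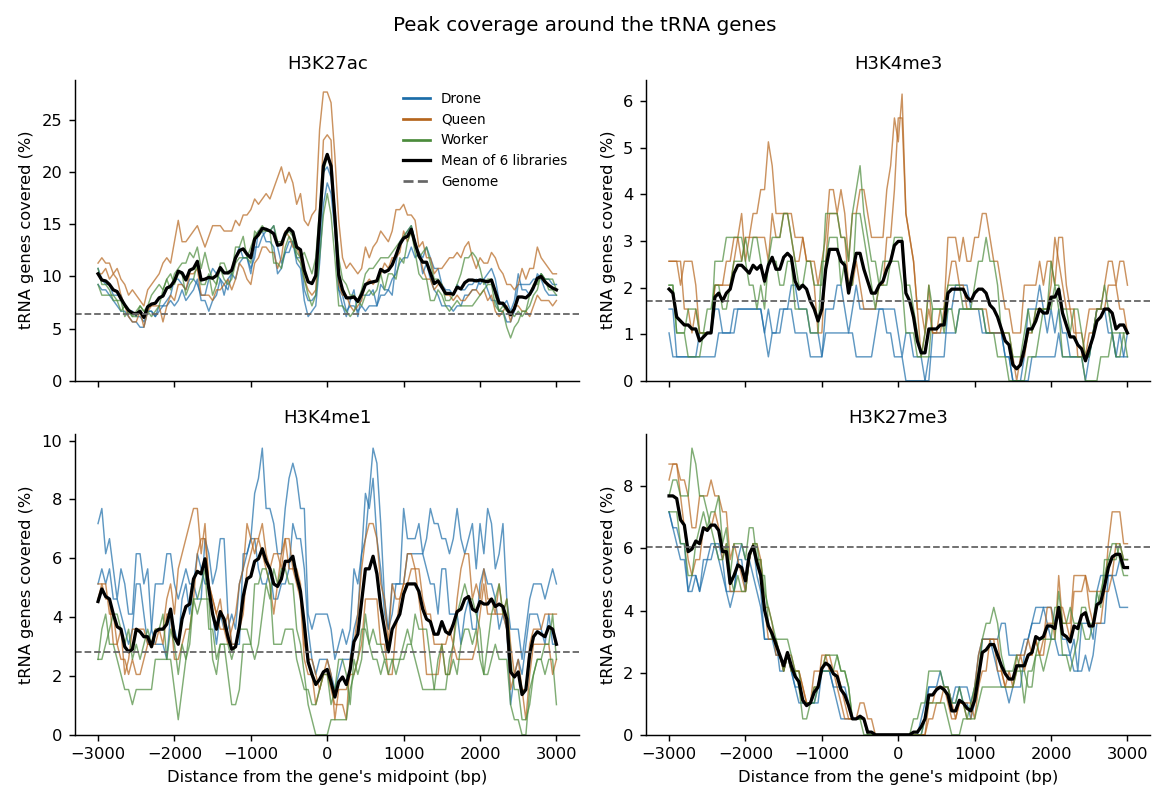
Share of the 195 tRNA genes covered by a peak (%) against the distance from the gene's midpoint (bp, by coordinate) for the 4 marks. Thin lines are libraries, the black line is their mean and the dashed line is the share of the genome covered. H3K27ac has a maximum of 21.7% at the midpoint, where H3K27me3 is at 0.

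The H3K27ac maximum was present in each subset of the genes. At the midpoint minus the mean at 200 bp on both sides, coverage differed by 14.3 points ± 1.66 (SD, n = 6) among the 141 genes near or in a protein-coding gene and by 8.49 points ± 2.06 among the 54 isolated ones. It differed by 14.0 points ± 2.07 among the 89 genes in groups and by 11.6 points ± 2.68 among the 106 single ones. In each of these subsets the midpoint was the higher in 6 of 6 libraries. The H3K27ac peaks that touched a gene numbered 30 to 47 per library, and in 17 to 26 of them the summit itself lay on the gene. Of these peaks 44.4% ± 8.33 were shorter than 300 bp, against 31.2% ± 7.23 of all H3K27ac peaks. Their median width ranged from 274.5 bp in drone replicate 1 to 612 bp in queen replicate 1. The peaks that touched a tRNA window had a median fold enrichment of 4.65 ± 0.719 against 3.58 ± 0.404 for all H3K27ac peaks. For H3K27me3 these medians were 2.69 ± 0.318 and 2.58 ± 0.185. The median distance of the summit from the gene, over the strongest peak of each marked gene, was 329 bp ± 43.1 for H3K27ac, 341 bp ± 133 for H3K4me3, 441 bp ± 46.3 for H3K4me1 and 498 bp ± 34.0 for H3K27me3. On average these medians thus lay in the outer part of the window for all 4 marks, and farthest out for H3K4me1 and H3K27me3. For H3K27ac, 21 to 28 summits per library lay within 200 bp, beside 55 to 73 marked genes.

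To see which genes carry a mark in every caste, the number of libraries with a peak was counted for each gene. H3K27ac was called at 39 tRNA genes (20.0%) in all 6 libraries and at 91 (46.7%) in at least 1. For comparison, the chromosomes were cut end to end into windows of 1073 bp, the median length of a scored gene, of which 9.58% had an H3K27ac peak in all 6 libraries and 22.2% in at least 1. H3K4me1 was called at 9 genes (4.62%) in all 6 libraries, against 1.41% of the windows, and at 57 (29.2%) in at least 1, against 26.9%. H3K4me3 was called at 3 genes (1.54%) in all 6 and at 27 (13.8%) in at least 1, against 2.33% and 9.41% of the windows. H3K27me3 was called at 2 genes (1.03%) in all 6 and at 7 (3.59%) in at least 1, against 8.14% and 21.3%. A further 16 genes had H3K4me1 in 1 library only, more than in any other number of libraries from 1 to 6, whereas for H3K27ac this was so for 18 genes and the full number of 6 was the most common. On the gene itself, 24 genes had H3K27ac in all 6 libraries. The windows of 1073 bp are no background for this count, and none of the length of a gene is given here.

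**Figure D3:**
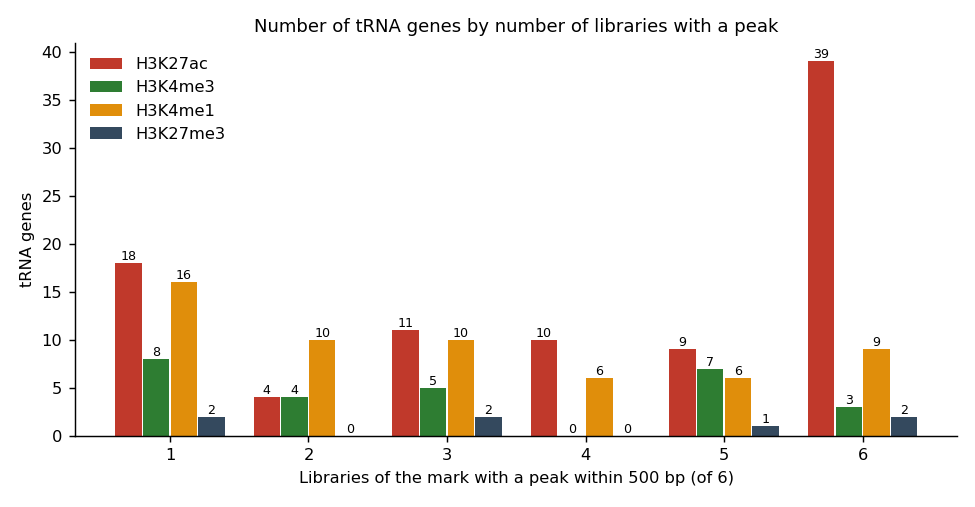
Number of tRNA genes (bars, labelled with the count) by how many of the 6 libraries of a mark had a peak within 500 bp. For H3K27ac the tallest bar is that of all 6 libraries (39 genes), and for H3K4me1 that of 1 library (16 genes).

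The 6 genes with the strongest H3K27ac peaks among these 39 were ranked by the median fold enrichment of the peak. The strongest was the arginine tRNA gene TRNAR-ACG on chromosome 11 (15652065 to 15652137), in the span of LOC100578709. The H3K27ac fold there was 18.2 and 18.2 for drone, 24.0 and 22.1 for queen and 14.7 and 17.2 for worker. The fold of H3K4me3 was 17.9 and 17.1 for drone, 23.9 and 20.4 for queen, and 12.4 and 9.21 for worker, the strongest H3K4me3 at any tRNA gene called in all 6 libraries. Both marks were highest in queen, although folds of libraries with other depths are not on one scale. The peak reached the gene itself in 2 of 6 libraries for each mark, so that it lay mostly beside the gene.

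The glycine gene TRNAG-UCC on chromosome 14 (8712760 to 8712831), in LOC408470, had H3K27ac and H3K4me3 peaks on the gene itself in 6 of 6 libraries each. H3K27ac reached a fold of 15.1 and 12.97 in drone, of 14.2 and 14.8 in queen and of 11.7 and 11.4 in worker. H3K4me3 reached 16.99 and 10.8 in the drone libraries, then 8.55 and 9.01 in queen and 7.33 and 7.40 in worker. It was the 1 tRNA gene with an H3K4me3 peak on the gene in all 6 libraries. Its neighbour TRNAG-CCC on chromosome 14 (8715952 to 8716022) had H3K4me1 in 6 of 6 libraries, with a fold of 2.93 to 5.33, and no H3K4me3.

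Of the other 4, 2 lay in 1 protein-coding gene. The lysine gene TRNAK-UUU (15: 7769380 to 7769452) and the alanine gene TRNAA-CGC (15: 7771395 to 7771466) both lay in LOC408517 and had H3K27ac peaks on the gene in 6 of 6 libraries. The H3K27ac fold was 7.36 to 11.3 for TRNAK-UUU and 6.88 to 10.5 for TRNAA-CGC. TRNAK-UUU there also had the strongest reproducible H3K4me1 of all tRNA genes, with a fold of 4.40 and 4.44 in the drone libraries, 4.30 and 4.77 in queen and 3.31 and 4.14 in worker, beside the gene and not on it. The proline gene TRNAP-UGG (10: 4431324 to 4431395), 509 bp from LOC100577188, had an H3K27ac fold of 8.36 to 10.96, on the gene in 1 of 6 libraries, and H3K4me3 in 5 of 6. The leucine gene TRNAL-AAG (1: 2006267 to 2006348), in LOC409852, had an H3K27ac fold of 5.18 to 10.2, on the gene in 6 of 6.

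H3K4me1 in all 6 libraries was also found at the cysteine gene TRNAC-GCA (16: 6732626 to 6732697), the glutamate gene TRNAE-CUC (4: 6537462 to 6537533), the valine gene TRNAV-AAC (16: 4517486 to 4517558) and the alanine gene TRNAA-UGC (11: 15943556 to 15943627). Their median folds were 3.52, 3.47, 2.96 and 2.75 in this order. In none of the 6 leading H3K4me1 genes did the H3K4me1 peak reach the gene in any library. TRNAA-UGC and TRNAV-AAC also had H3K27ac in 6 of 6 libraries, TRNAE-CUC had it in 1 and TRNAC-GCA in none.

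H3K27me3 was found in all 6 libraries at 2 tRNA genes. At TRNAC-GCA on chromosome 16 the drone libraries had a fold of 5.79 and 4.998, the queen libraries 4.44 and 4.31 and the worker libraries 3.14 and 3.14. At the leucine gene TRNAL-UAA (6: 17362395 to 17362478), which lay 138819 bp from the nearest protein-coding gene, the fold was 1.82 and 2.31 in the drone libraries, only 1.43 and 1.83 in queen and 1.94 and 1.81 in worker, in each case below the median fold of all peaks in the list. The phenylalanine gene TRNAF-GAA (6: 13704884 to 13704956) had H3K27me3 in 5 of 6 libraries with a fold of 2.88 to 4.28. Another TRNAF-GAA (4: 2542643 to 2542715) and the threonine gene TRNAT-AGU (16: 6728768 to 6728841) had it in 3 of 6, and TRNAV-AAC (3: 8500941 to 8501013) in 1. None of these 6 genes had an H3K27ac peak in any library.

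How marks combine at 1 gene was asked within a caste, with a mark counted where both libraries had a peak. H3K27ac was called in this way at 48 tRNA genes in drone, 61 in queen and 51 in worker, or 24.6%, 31.3% and 26.2%. The windows gave 12.3% in drone, 13.6% in queen and 13.8% in worker. Most of these genes carried no other mark: 35 in drone, 44 in queen and 37 in worker had H3K27ac alone, or 17.9%, 22.6% and 19.0% of all tRNA genes. Of the windows, 6.42%, 6.78% and 8.98% had H3K27ac alone in drone, queen and worker. H3K4me3 accompanied H3K27ac at 2 of 48 genes in drone, 11 of 61 in queen and 9 of 51 in worker, which is 4.17%, 18.0% and 17.6%. The share of H3K27ac windows with H3K4me3 was 18.6%, 28.3% and 23.3% in the same order of castes. H3K4me1 accompanied H3K27ac at 11 genes in drone, 11 in queen and 6 in worker, which is 22.9%, 18.0% and 11.8% of the H3K27ac genes, against 30.5%, 27.4% and 13.3% of the H3K27ac windows. No mark was called at 128 tRNA genes in drone, 122 in queen and 136 in worker, or 65.6%, 62.6% and 69.7%, against 74.4%, 71.0% and 73.2% of the windows.

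The opposed marks of lysine 27 did not meet at any tRNA gene. H3K27ac and H3K27me3 were called together at 0 of 195 genes in each caste, against 0.271% of the windows in drone, 0.402% in queen and 0.271% in worker. These window shares are below the 1.54% that a count of 0 allows, so at this number of genes no lack of the pair can be seen. H3K4me3 and H3K27me3 were called together at 0 genes in drone, 2 in queen and 1 in worker, against 0.0783%, 0.318% and 0.234% of the windows. The 2 in queen were TRNAF-GAA on chromosome 6 and TRNAT-AGU on chromosome 16, and the 1 in worker was TRNAC-GCA on chromosome 16. All of them also had H3K4me1 in 6 of 6 libraries, and the last 2 are neighbours, 3930 bp from end to end. At TRNAT-AGU the H3K4me3 fold of the drone libraries was 4.85 and 3.92, with 3.59 and 4.04 in queen and 3.87 and 3.25 in worker, with H3K4me3 on the gene in 3 of 6 libraries.

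The amino acid that a tRNA carries gave a first way to group the genes. The groups are small and hold neighbours, so they are described without a test. For H3K27ac the share with a peak was highest among the 13 leucine genes, at 67.9% ± 7.56 (SD, n = 6 libraries), with 8 to 10 genes per library and 11 in at least 1. The 15 alanine genes followed with 54.4% ± 10.7, the 5 tyrosine genes with 50.0% ± 10.95, the 14 glycine genes with 48.8% ± 9.49, the 12 lysine genes with 43.1% ± 3.40 and the 12 valine genes with 41.7% ± 5.27. From alanine to valine, each differed from the next by less than the larger of the 2 SDs. These SDs are over libraries scored on the same few genes. They do not measure the spread between genes, so the rank of leucine was not tested either. The lowest shares were 6.67% ± 5.16 for the 10 methionine genes, 2.78% ± 6.80 for the 6 phenylalanine genes and 0 for the 3 cysteine genes. For comparison, all 195 genes together had 32.3%.

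Methionine genes, low in H3K27ac, were not low in H3K4me1. Of the 10 methionine genes, which all have the anticodon CAU and serve to start proteins or to add methionine within them, 7 had H3K4me1 in at least 1 library, against 29.2% of all tRNA genes, and 1 had H3K27ac. Of the 7 with H3K4me1, 3 were neighbours within 848 bp on chromosome 8. The share per library varied widely, with H3K4me1 at 23.3% ± 17.5 of methionine genes (SD, n = 6), and the 12.8% ± 7.94 of leucine genes lay within that spread. Among glycine genes the 5 with the anticodon UCC all had H3K27ac in 6 of 6 libraries and H3K4me3 in 5 or more, and 4 of them had H3K4me1. None of the 8 with the anticodon GCC had H3K27ac in all 6 libraries, and 3 had it in at least 1. Glycine genes led in H3K4me3, with 30.95% ± 11.7, and 8 amino acids had no H3K4me3 peak at any gene in any library. The glycine genes with H3K4me3 were the 5 with UCC, of which 4 lay within 760 bp. H3K27me3 was confined in these libraries to genes for cysteine (1 of 3), phenylalanine (2 of 6), leucine (1 of 13), threonine (1 of 10) and valine (2 of 12).

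**Figure D4:**
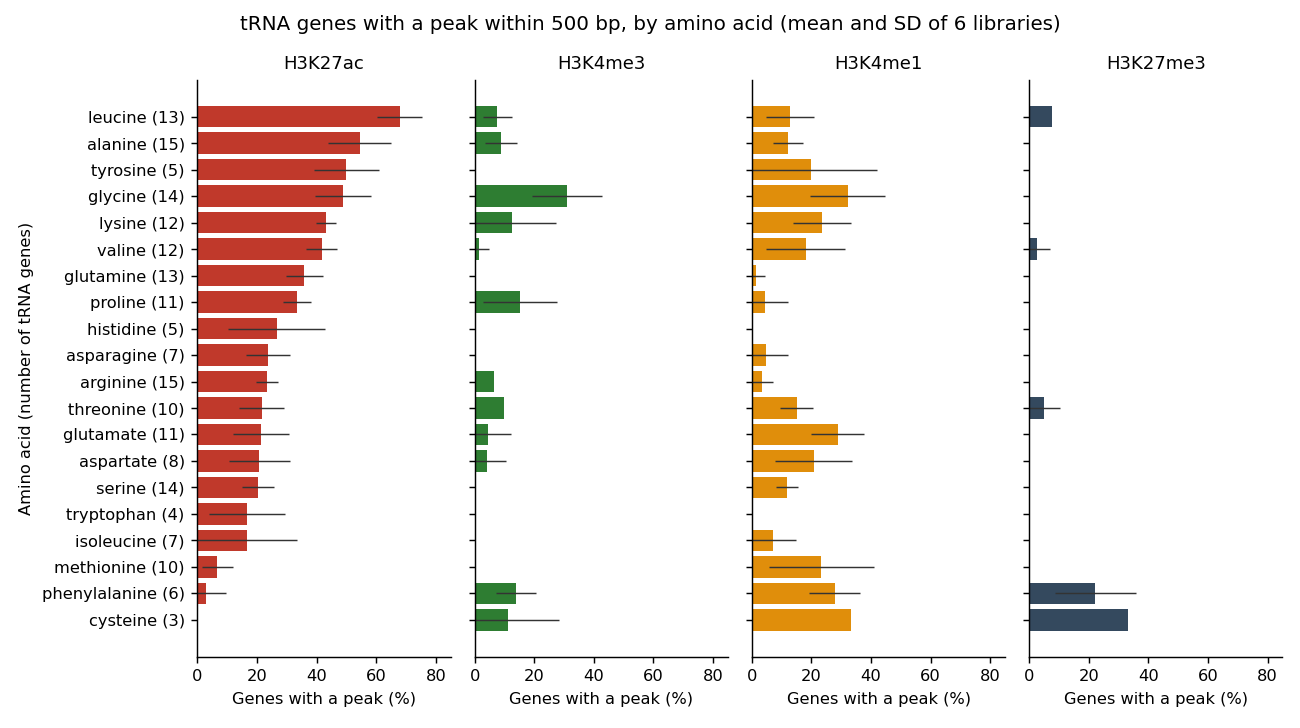
Share of tRNA genes with a peak within 500 bp (%, mean of 6 libraries with SD as error bars) by amino acid, ordered by H3K27ac, with the number of genes in brackets. The 13 leucine genes are highest for H3K27ac (67.9%), and the 3 cysteine genes have none.

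Neighbouring genes were the second grouping. The 89 genes in groups had H3K27ac in 41.0% ± 6.23 (SD, n = 6 libraries) and the 106 single genes in 25.0% ± 3.20. For H3K4me3 the shares were 10.5% ± 3.999 in groups and 4.40% ± 2.58 in single genes, for H3K4me1 16.9% ± 5.27 and 13.2% ± 4.42, and for H3K27me3 1.87% ± 0.580 and 2.36% ± 0.989. A wide peak can mark several neighbours at once. When only the first gene of each group was kept, the log2 ratios kept their sign in all 4 marks. Among the single genes alone, the ratio of H3K4me3 was −0.48 ± 1.14, with 4.40% against 4.84% of all positions. In the grouped genes it was 0.99 ± 0.43. For H3K27ac, H3K4me1 and H3K27me3 the single genes had ratios of 0.70, 0.23 and −2.40, with the sign kept.

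The largest group had 8 genes within 2169 bp on chromosome 2 (10947112 to 10949280), 7 for glutamine and the tyrosine gene TRNAY-GUA. Each H3K27ac library had a peak at 3 of them, and no library had H3K4me3 or H3K27me3 at any. A group of 5 on chromosome 15 (5759133 to 5764791) had H3K27ac at 1 to 4 genes per library, and a group of 5 on chromosome 16 (6741309 to 6748372) at 0 to 2. The 4 TRNAG-UCC genes on chromosome 2 lay within 760 bp (10534429 to 10535188). All 4 had H3K27ac in 6 of 6 libraries and H3K4me3 in 5 of 6. In 3 of them the H3K27ac peak touched the gene in all 6 libraries, and in the first by position it did so in 1. These 4 share peaks and an anticodon, so they are not 4 independent observations. The other groups of 4 ranged widely. The one on chromosome 10 (10069123 to 10071821) had H3K27ac at 3 or 4 genes in every library, the one on chromosome 8 (7711686 to 7714527) at 1, and the one on chromosome 4 (7669521 to 7675992) had no peak of any mark.

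A peak at a tRNA gene within a protein-coding gene can belong to the host gene, so both kinds of place were compared. The 141 genes in or within 1000 bp of a protein-coding gene had H3K27ac in 34.2% ± 4.61 and the 54 isolated genes in 27.5% ± 3.59 (SD, n = 6). The difference was 6.69 percentage points ± 5.92 (exact sign-flip permutation test, two-sided, adjusted p = 0.0833, higher in 5 of 6 libraries). Isolated genes alone had H3K27ac above the 15.1% of all positions, with a log2 ratio of 0.81 ± 0.23. Isolated refers to protein-coding genes only. Among all tRNA genes, 10 lay inside a gene for long non-coding RNA, and these were not set apart. Whether a peak belongs to a host gene was not tested. H3K4me3 was lower near protein-coding genes, with 5.91% ± 3.06 against 10.5% ± 3.64 in isolated genes, a difference of −4.58 points ± 2.94 (adjusted p = 0.0625 in the same exact test, lower in 6 of 6). H3K27me3 was at 1.18% ± 0.859 near protein-coding genes against 4.63% ± 1.01 in isolated genes, a difference of −3.45 points ± 1.83 (exact test, adjusted p = 0.0625, lower in 6 of 6). For H3K4me1 the shares were 14.3% ± 4.90 near protein-coding genes and 16.4% ± 3.40 in isolated genes (exact test, adjusted p = 0.125). None of these 4 differences passed an adjusted threshold of 0.05. The 102 genes inside a protein-coding gene had H3K4me1 in 18.0% ± 6.52, above the 14.3% of all 141 and the 16.4% of isolated genes. Their shares were 33.8% ± 4.55 for H3K27ac, 6.21% ± 2.68 for H3K4me3 and 1.47% ± 1.03 for H3K27me3. These 102 were not tested on their own. With the border at 2000 bp in place of 1000 bp, the H3K4me3 difference had the opposite sign (1.69 points). The isolated genes with H3K4me3 numbered 2 to 7 per library. In 5 of 6 libraries they included the 4 neighbouring TRNAG-UCC genes on chromosome 2, which share peaks. These lay 1373 to 2061 bp from a protein-coding gene, so most of them changed sides at 2000 bp.

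Distance from the ends of protein-coding genes, where their own promoters lie, was also considered. The 119 tRNA genes over 2000 bp from such an end had H3K27ac in 27.3% ± 2.18 and, on the gene itself, in 18.1% ± 1.48, against 15.1% and 7.21% of all positions. The 31 within 500 bp of an end had it in 36.6% ± 8.33 and in 22.6% ± 10.99. H3K4me1 went the other way, with 18.1% ± 6.46 far from an end and 7.53% ± 4.86 close to one.

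The most similar genes in length are the 317 other genes for small RNAs: 236 for microRNAs (miRNA), 41 for ribosomal RNA (rRNA), 26 for small nuclear RNA (snRNA) and 14 for small nucleolar RNA (snoRNA). Of tRNA genes 32.3% had H3K27ac against 29.4% ± 1.76 of these genes, a difference of 2.92 points ± 2.67 (exact sign-flip permutation test, two-sided, adjusted p = 0.0833). On the gene itself this difference was −0.12 points ± 3.67 (exact test, adjusted p = 0.969), and among isolated genes alone it was −2.32, so no lasting excess of H3K27ac over other small RNA genes was measured. H3K27me3 was lower at tRNA genes, with 2.14% against 9.15% ± 0.564, a difference of −7.01 points ± 0.581 in 6 of 6 libraries (exact test, adjusted p = 0.0625). On the gene itself it was 0 against 6.83% ± 0.326, a difference of −6.83 points (exact test, adjusted p = 0.0417, an alternative chosen after the data were seen). For H3K4me3 the difference was −3.86 points ± 2.19, lower at tRNA genes in 6 of 6 libraries (exact test, adjusted p = 0.0625), and H3K4me1 differed by 0.31 points ± 3.28 (adjusted p = 0.906 in the same exact test). On the gene itself, in the same alternative chosen after the data were seen, both were lower at tRNA genes. The differences were −3.88 points ± 2.09 for H3K4me3 and −4.41 points ± 2.11 for H3K4me1 (exact test, adjusted p = 0.0417 each). Among isolated genes alone the differences were −1.45 points ± 3.65 for H3K4me3 (exact test, adjusted p = 0.5) and 5.89 points ± 2.48 for H3K4me1 (exact test, adjusted p = 0.0625).

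The classes within this set differed widely. snRNA genes had H3K27ac in 48.7% ± 3.14 (SD, n = 6), and on the gene in 42.9% ± 5.11. miRNA genes had it in 32.3% ± 1.58, snoRNA genes in 19.0% ± 8.65 and rRNA genes in 3.66% ± 4.82. H3K27me3 was at 11.9% ± 0.624 of miRNA genes and on 9.18% ± 0.438 of them, and at 3.21% ± 3.78 of snRNA genes, 0 of 14 snoRNA and 0 of 41 rRNA genes. Of the 317 other small RNA genes, the 236 for miRNAs thus held nearly all of the H3K27me3. Their 11.9% stood against 13.7% of all positions.

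**Figure D5:**
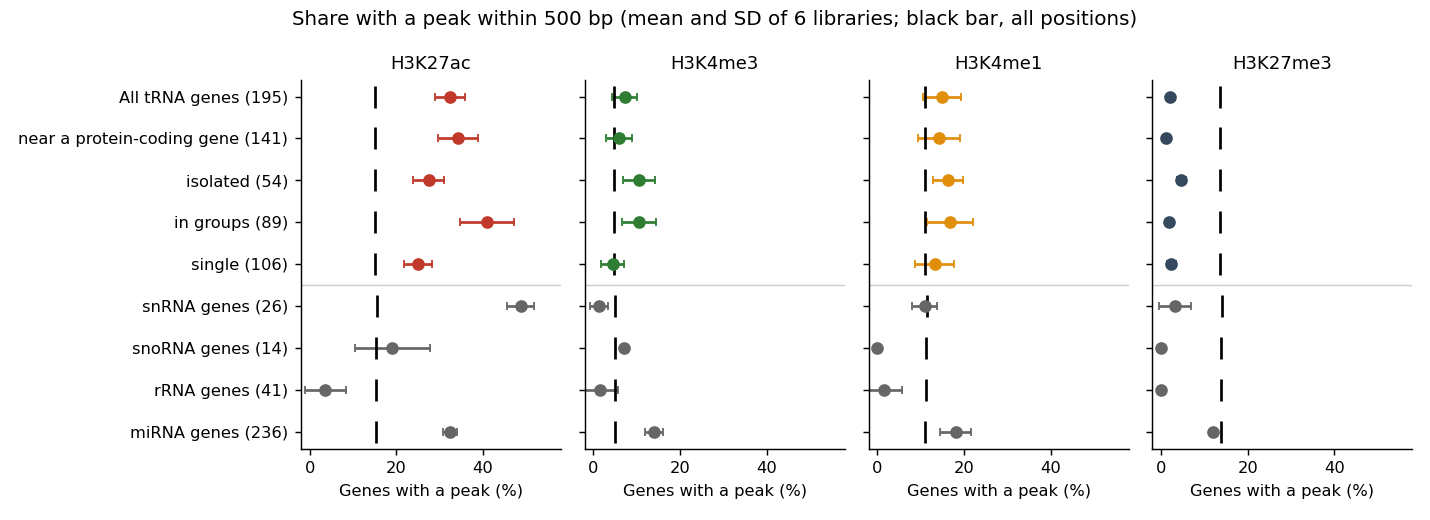
Share of genes with a peak within 500 bp (%, circles with SD over 6 libraries) for tRNA genes and their subsets (coloured) and for other small RNA genes (grey), with the share of all positions as a black bar and the number of genes in brackets. H3K27ac lies above the bar in all 5 rows of tRNA genes, and H3K27me3 lies below it.

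The last question was whether the castes differ. For H3K27ac the log2 ratio was 1.03 ± 0.11 in drone, 1.17 ± 0.0046 in queen and 1.04 ± 0.073 in worker (SD, n = 2). Drone minus female was −0.08 and the libraries overlapped (exact permutation test, two-sided, 2 against 4 libraries, adjusted p = 0.467). Between castes in pairs, drone minus queen was −0.14 and queen minus worker 0.13, against a within-caste SD of 0.074, and in both pairs the libraries were separate. The gaps depended on the setting. With 1 gene per group of neighbours drone was at 0.97 and queen at 0.98 with overlapping libraries, among isolated genes drone (0.99) was above queen (0.90), and with 1000 bp on each side queen and worker overlapped. On the gene itself queen minus worker was 0.37, with a within-caste SD of 0.086. Drone minus worker was −0.01.

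H3K4me1 gave the widest gap between castes relative to replicates. The 2 drone libraries had a log2 ratio of 0.69 and 0.78, the queen libraries 0.06 and 0.22, and the worker libraries 0.39 and 0.38. Both drone libraries lay above all 4 female libraries. Within 500 bp, drone minus female was 0.48 with a within-caste SD of 0.073 (exact permutation test, two-sided, p = 0.0667, adjusted p = 0.267). This is the smallest p that 2 against 4 libraries allow, so the design cannot pass 0.05. The drone libraries had the fewest recovered tags, and with all lists scaled to the lowest tag number of the mark the difference was 0.35. With windows moved by 10000 bp as the background it was 0.20, within the SD of 0.27, and the libraries overlapped. They also overlapped on the gene alone, with 1 gene per group and among isolated genes. In pairs, drone minus queen was 0.60, drone minus worker 0.36 and queen minus worker −0.24.

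For H3K4me3 the log2 ratio was 0.18 ± 0.33 in drone, 0.63 ± 0.069 in queen and 0.66 ± 0.40 in worker, a drone minus female difference of −0.47 with overlapping libraries (exact permutation test, adjusted p = 0.4). It was −0.071 with equal numbers of peaks and −0.23 without drone replicate 1. The 7 genes in each drone library stand beside 4.20 and 5.21 M recovered tags, the fewest of all libraries, and the part of tag number cannot be told apart. For H3K27me3 it was −2.42 ± 0.21 in drone, −2.58 ± 0.023 in queen and −2.67 ± 0.41 in worker (exact permutation test, adjusted p = 0.444).

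Few tRNA genes had a mark in 1 caste alone, meaning a peak in both its libraries and in none of the other 4. For H3K27ac there was 1 in drone, 1 in queen and 0 in worker, or 0.513%, 0.513% and 0 of the genes, and the windows gave 0.537%, 0.651% and 0.664%. For H3K4me3 there were 0 in drone, 1 in queen and 2 in worker, against 0.0501%, 0.666% and 0.185% of the windows. For H3K4me1 there were 4, 1 and 0, against 2.35%, 1.69% and 0.28%. For H3K27me3 there was none in any caste, against 0.785%, 0.316% and 0.598%. The share of tRNA genes was above that of the windows for H3K4me3 in worker (1.03%) and below it in each other case. These differences rest on 0 to 4 genes each and were not tested.

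The drone gene with H3K27ac was the asparagine gene TRNAN-GUU (5: 12152482 to 12152555) in nAChRa3, which encodes a subunit of the nicotinic acetylcholine receptor. Its fold was 5.76 and 5.48 in drone, with the peak on the gene in both libraries. The queen gene was another TRNAN-GUU (13: 4309292 to 4309365), 214 bp from Vhdl, with a fold of 2.89 and 3.27 in queen. The 4 genes with H3K4me1 in drone alone included TRNAV-AAC (3: 2106997 to 2107069) with a fold of 3.50 and 4.32, TRNAN-GUU (10: 10071748 to 10071821) with 2.07 and 2.44 and TRNAY-GUA (2: 10949184 to 10949280) with 1.63 and 2.06. The remaining one, TRNAG-GCC (4: 5187502 to 5187572) in LOC551257, had a fold of 2.30 and 1.61. It came last because the 3 were ranked by the lower of the −log10 q values. In queen alone it was found at the proline gene TRNAP-AGG (4: 11948198 to 11948269), with a fold of 1.94 and 1.78. H3K4me3 in queen alone was found at TRNAK-UUU on chromosome 15, with a fold of 2.79 and 3.12. In worker alone it was found at TRNAC-GCA on chromosome 16, with 2.51 and 2.63, and at the aspartate gene TRNAD-GUC (10: 12276557 to 12276628), with 1.66 and 2.56.

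Replicates shared most of their H3K27ac genes in every caste. Of the tRNA genes with an H3K27ac peak in either library of a caste, 75.0% had it in both in drone, 76.2% in queen and 68.9% in worker. For H3K4me1 these shares were 60.4% in drone, 58.3% in queen and 37.9% in worker, and for H3K4me3 27.3% in drone, 58.3% in queen and 77.8% in worker. For H3K27me3 they were 4 of 5 genes in drone, 4 of 4 in queen and 2 of 6 in worker. The same shares over the windows are not given here, so these values describe the tRNA genes only.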

How the data were processed

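The authors mapped ChIP-seq reads with BWA (version 0.7.17) to Amel_HAv3.1 and called peaks per library with MACS2, at a genome size of 270000000 bp. Control, cutoff and filters on reads were not given in the sources used here. The deposited lists give positions, the fold enrichment (a ratio) of each summit, and −log10 p-values and q-values, and the lowest −log10 q lay near 2 in every list. The 3 input samples had no file analysed here. Peak columns 1 to 3 were intersected with the gene table (any shared bp), and all coordinates count from 1. Tag numbers were recovered from the lowest background, which follows from a summit's fold and Poisson p-value, and the shortest peak width.

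Named genes were, per mark, up to 6 with a peak in all 6 libraries and the highest median fold (for H3K27me3, with only 2 such genes, those with most libraries), up to 3 per caste for a mark in 1 caste alone, all with H3K4me3 and H3K27me3 in both libraries of a caste, and the 4 largest groups. The members and lists were chosen with earlier results of these data known. Lists of RNA polymerase III and aminoacyl-tRNA synthetase genes by product name, and sequences, were not used here. Neuron, glia, gland and fat body markers were looked up by symbol, and elav, fne, Syn, nSyb and repo were not matched. Alternatives used other flanks, stricter q-values, equal peak numbers, scaled depth, summits, 1 gene per group, isolated genes, percentage points, moved windows, the replicate block and each library left out. p-values rest on the spread between libraries, which in tests over all 6 of a mark includes that between castes. They do not cover the choice of genes. Functions were tested on simulated data. Python 3.11.15, numpy 2.4.6, pandas 2.3.3 and scipy 1.17.1 were used.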

Additional observations from a re-analysis of the deposited data

How the results depend on the processing

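The exact sign-flip permutation test over 6 libraries can pass an adjusted 0.05 only if at least 3 of the 4 marks have 1 sign in all libraries, and over 5 libraries not at all, so several calls moved across the threshold by construction. Peaks on the gene alone gave log2 ratios of 1.56 for H3K27ac and −4.79 for H3K27me3, both with the same sign in 6 of 6 libraries but no longer past the threshold, and −0.58 for H3K4me1, with the sign turned round. With summits in place of whole peaks the ratios were 1.22 for H3K27ac, 0.15 for H3K4me1 and −2.88 for H3K27me3, and none passed. H3K4me3 passed with 1000 bp on each side (0.46), with −log10 q of at least 5 (0.55) and with 1 gene per group of neighbours (0.49), but its ratio was 0.034 with equal numbers of peaks and 0.077 against windows moved by 10000 bp (exact sign-flip permutation test, adjusted p = 0.938 and 0.688).

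The order of H3K4me3 and H3K4me1 was not settled. Their difference in log2 ratio was 1.07 on the gene alone, −0.076 with 1000 bp, −0.19 with −log10 q of at least 5, −0.67 with equal numbers of peaks, −0.15 with depths scaled to the lowest, −1.61 as a difference in percentage points and −0.52 against windows moved by 10000 bp. Among isolated genes H3K27ac minus H3K4me3 was −0.12 and H3K27ac minus H3K4me1 was 0.26. The causes were not tested. The drone minus female difference turned round for H3K27ac with 1 gene per group (0.087) and among isolated genes (0.27), and for H3K27me3 with summits (−0.23) and among isolated genes (−0.32). For H3K4me1 it stayed positive, at 0.20 to 0.73 on the log2 scale and 6.12 in percentage points. For H3K4me3 it was −0.071 with equal numbers of peaks, and −0.70 to −0.23 with each library left out, nearest to 0 without drone replicate 1. The difference between genes near and far from protein-coding genes turned round for H3K4me1 with a border of 500 bp (2.25 points) and for H3K4me3 with 2000 bp (1.69 points). Against other small RNA genes H3K27ac was −2.32, H3K4me3 −1.45 and H3K4me1 5.89 points among isolated genes, and with peaks on the gene alone, a setting chosen after seeing the data, the differences were −0.12 for H3K27ac, −3.88 for H3K4me3, −4.41 for H3K4me1 and −6.83 for H3K27me3. Coverage at the midpoint minus that at 2000 bp was 12.1 points for H3K27ac, −1.71 for H3K4me1 and −4.23 for H3K27me3, none of them past the threshold any longer. Genes with a mark in 1 caste alone numbered 1 in place of 3 for H3K4me3 at scaled depth, and 3 in place of 5 for H3K4me1 with −log10 q of at least 5. In all, 152 values recomputed under other settings kept their direction and their side of the threshold, 17 turned round, 9 lost and 6 gained the threshold and 2 counts moved.

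With each library left out in turn, the log2 ratio was 1.06 to 1.10 for H3K27ac, 0.35 to 0.49 for H3K4me1 and −2.61 to −2.47 for H3K27me3. H3K4me3 minus H3K4me1 was −0.022 to 0.18, and below 0 without worker H3K4me3 replicate 2 or queen H3K4me1 replicate 1. The coverage difference at the midpoint was 8.41 to 9.44 points for H3K27ac, −3.28 to −2.72 for H3K4me1 and −1.69 to −1.54 for H3K27me3. H3K4me1 against other small RNA genes was −0.53 to 1.12 points, and below 0 without either drone library.

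Between marks, 15 correlations of the deviations of replicates were −0.0041 to 0.23, and 3 exceeded 0.1. With 2 replicates per caste and calls at a threshold, they cannot decide whether replicate numbers paired the libraries of different marks. With the replicate number as a block, the 6 differences between marks kept their values (0.59, 0.66, 3.63, 3.04, 2.97 and 0.07) and no call changed (exact sign-flip permutation test, adjusted p = 0.0375 for the first 5 and 0.812 for H3K4me3 minus H3K4me1).

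The number of recovered tags limits the caste comparisons, since both drone libraries had the fewest in every mark, though not the fewest mapped reads in the paper. A list of peaks has a threshold, so weak enrichment is not seen. Short tRNA genes lie within single peaks, and neighbours share them.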
